A study of Mus musculus with 8 samples.

Results

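The genes described here are 36 genes of the lysosome: 11 proteases, 13 glycosidases and sulfatases, 6 proteins of lipid breakdown, 5 membrane proteins and the transcription factor Tfeb. They were taken by gene symbol from the 17457 genes listed in each library. All 36 passed the filter of at least 0.5 FPKM (fragments per kilobase of transcript, scaled to the mapped fragments of the library) in at least 4 libraries, as did 12383 genes in all.

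Kidney cortex was taken from C57BL/6J animals fed for 3 days with either a normal Pi diet (0.6% phosphate) or a high Pi diet (1.2% phosphate), and its RNA was sequenced to ask how dietary phosphate alters kidney transcripts. Each diet was represented by 4 libraries, and the mice of the study were males of 8 to 16 weeks. The labels number the libraries 1 to 4 within a diet but do not state that each came from a separate animal, so p-values measure the spread between these libraries. The cortex is a mixture of cell types, and in such bulk tissue fewer cells of a type and less RNA per cell cannot be told apart.

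Lysosomes break down proteins, glycans and lipids that reach them by endocytosis or autophagy. Most of their soluble hydrolases are tagged with mannose 6-phosphate in the Golgi and carried to the acidic lumen, while membrane proteins such as Lamp1 and Lamp2 line the inside of the boundary membrane. Proximal tubule cells, the main cells of the cortex, take up filtered proteins at their brush border and degrade them in lysosomes. Tfeb, when it enters the nucleus, activates many lysosomal genes through promoter elements built around the E-box CACGTG.

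The promoter sequences are shown because this E-box is the core of the elements named above. It was found in only part of the members. The 250 bases upstream of the start were searched in RefSeq promoters of build GRCm38.p6, for which 33 of the 36 members had an entry. The 3 others were Ctsb, Ctsh and Asah1. CACGTG, which reads the same on both strands, was present in 12 of 33 members (36.4%) and in 992 of the 9923 tested genes with an entry. The longer form TCACGTGA, which contains CACGTG, was present in 4 members (12.1%), namely Ctsa, Ctsd, Gla and Mcoln1, against 1.77% of those genes. The longest form searched, known as the palindromic CLEAR element, which contains both shorter ones, was found in 0 members and in 0.605% of those genes. These matches describe the letters of each window and do not show binding.

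The upstream sequence of Lamp1 held 4 copies, starting 61, 45, 28 and 15 bases before the start. It is printed with the 4 members that hold the longer form and 3 enzymes of glycan breakdown that hold CACGTG alone (Glb1, Gaa and Naglu). Each runs 5′ to 3′ on the strand of its gene, with CACGTG in capitals.
Lamp1, chr8:13159091-13159160, plus strand: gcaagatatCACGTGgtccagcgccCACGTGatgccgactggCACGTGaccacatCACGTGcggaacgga
Mcoln1, chr8:3500462-3500491, plus strand: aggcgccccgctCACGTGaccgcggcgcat
Ctsd, chr7:142387908-142387937, minus strand: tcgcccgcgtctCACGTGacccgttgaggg
Gla, chrX:134601183-134601212, minus strand: gtgagatctcggtCACGTGagcaactctcg
Ctsa, chr2:164833749-164833772, plus strand: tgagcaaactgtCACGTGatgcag
Glb1, chr9:114401018-114401047, plus strand: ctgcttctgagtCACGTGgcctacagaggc
Gaa, chr11:119267808-119267837, plus strand: ggttttctgtgcgatCACGTGtttgactct
Naglu, chr11:101070009-101070038, plus strand: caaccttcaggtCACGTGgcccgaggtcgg
In the GENCODE annotation of this build, the windows of Lamp1, Glb1 and Gaa overlapped no exon. The windows of Mcoln1, Ctsd, Ctsa and Naglu overlapped an annotated exon of the same gene, and that of Gla an exon of Hnrnph2.

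The members were abundant transcripts of the cortex. Their median level over all libraries was 54.0 FPKM, against 7.88 FPKM for all tested genes. Levels of single members ran from 1.66 FPKM for Gla to 840 FPKM for Cd63. The plot of levels shows that Cd63, Lamp1, Psap and Lamp2 led, followed by the proteases Lgmn, Ctsb and Ctsd. Neighbours in this order often did not differ beyond their spread, as with Lgmn (mean 489 FPKM) and Ctsb (mean 488 FPKM). Within the normal Pi diet the libraries were close to each other, with a median coefficient of variation of 5.42% for the members and 9.02% for all genes. In the high Pi diet the corresponding values were 10.8% and 11.9%.

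**Figure D1:**
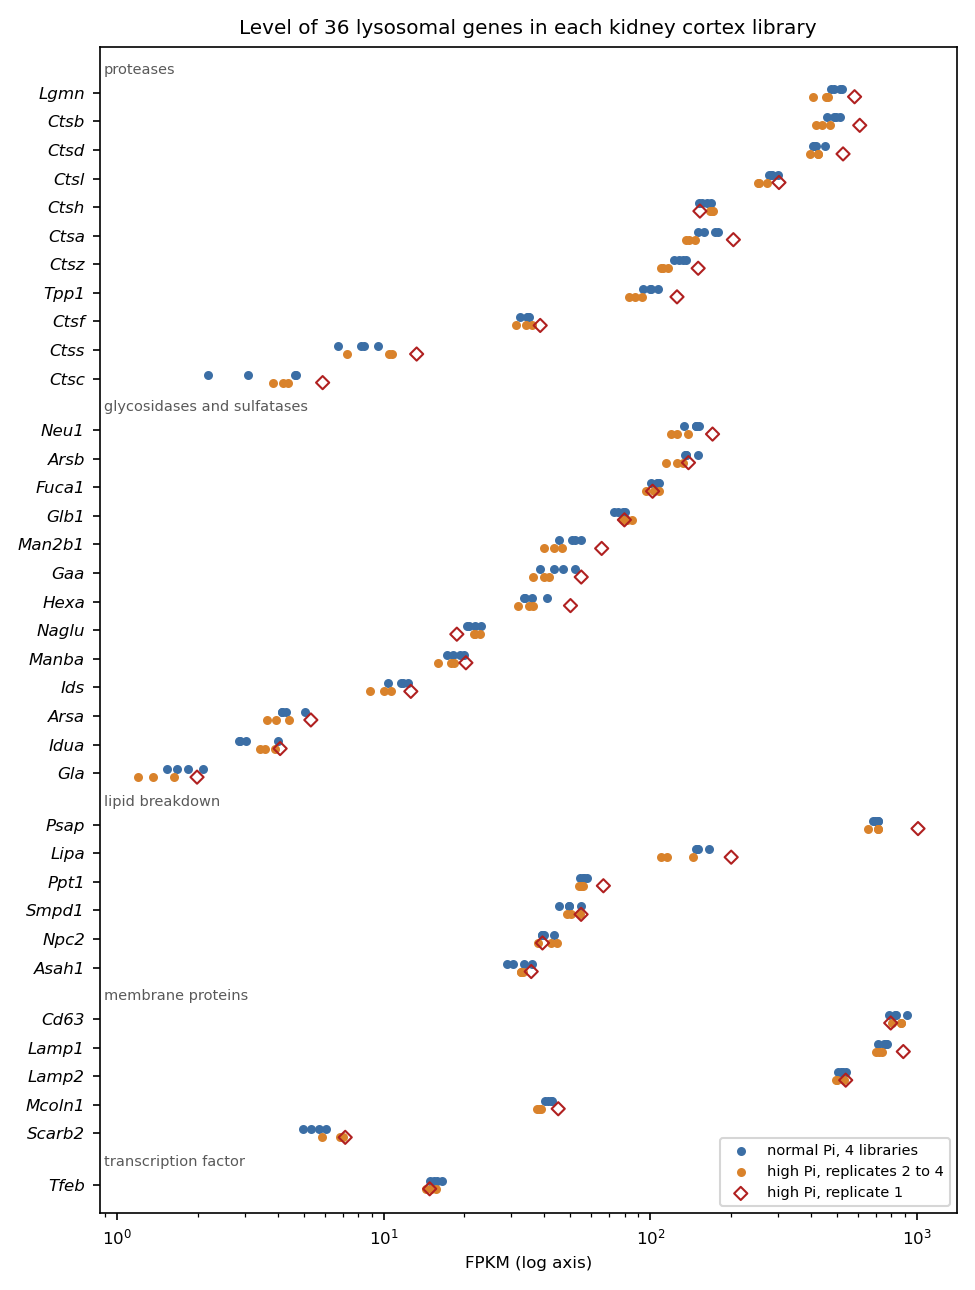
Level of each of the 36 lysosomal genes in FPKM (log axis), grouped by role and ordered by mean level; each symbol is 1 library, blue for normal Pi, orange for high Pi replicates 2 to 4 and an open diamond for high Pi replicate 1. Levels run from 1.66 FPKM on average (Gla) to 840 FPKM (Cd63), and the diamond is the highest of the 8 libraries for 24 genes.

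None of the 36 members passed the threshold between diets. In limma on log2(FPKM + 1), with Benjamini-Hochberg adjustment over all 12383 genes, 0 members had an adjusted p under 0.05 in either direction, while 37 genes in all did (0.299%, of which 0.178% higher and 0.121% lower on high Pi). At an unadjusted p under 0.05 there was 1 member (2.78%), Scarb2, which was higher on high Pi, against 9.35% of all genes (4.55% higher and 4.80% lower). The median log2 difference of the members, high Pi minus normal Pi, was -0.02, and that of all tested genes was -0.01. Values below 0 were found for 21 members (58.3%) and for 54.3% of all genes. The values of the diets overlapped for all 36 members, whereas the high Pi libraries all lay above the normal Pi libraries for 2.41% of all genes and all below for 2.62%.

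The confidence intervals set limits on what could have been missed. For 34 of 36 members (94.4%) the 95% interval of the difference lay within 1.5-fold either way, as it did for 94.4% of all genes. The exceptions were the proteases Ctss and Ctsc. These intervals are on log2(FPKM + 1), where fold changes of low genes are understated. For members as low as Gla (1.66 FPKM) the limits in FPKM itself are therefore wider. Within a narrower limit of 1.2-fold, set after the values were seen, lay 18 of 36 members and 38.8% of all genes.

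**Figure D2:**
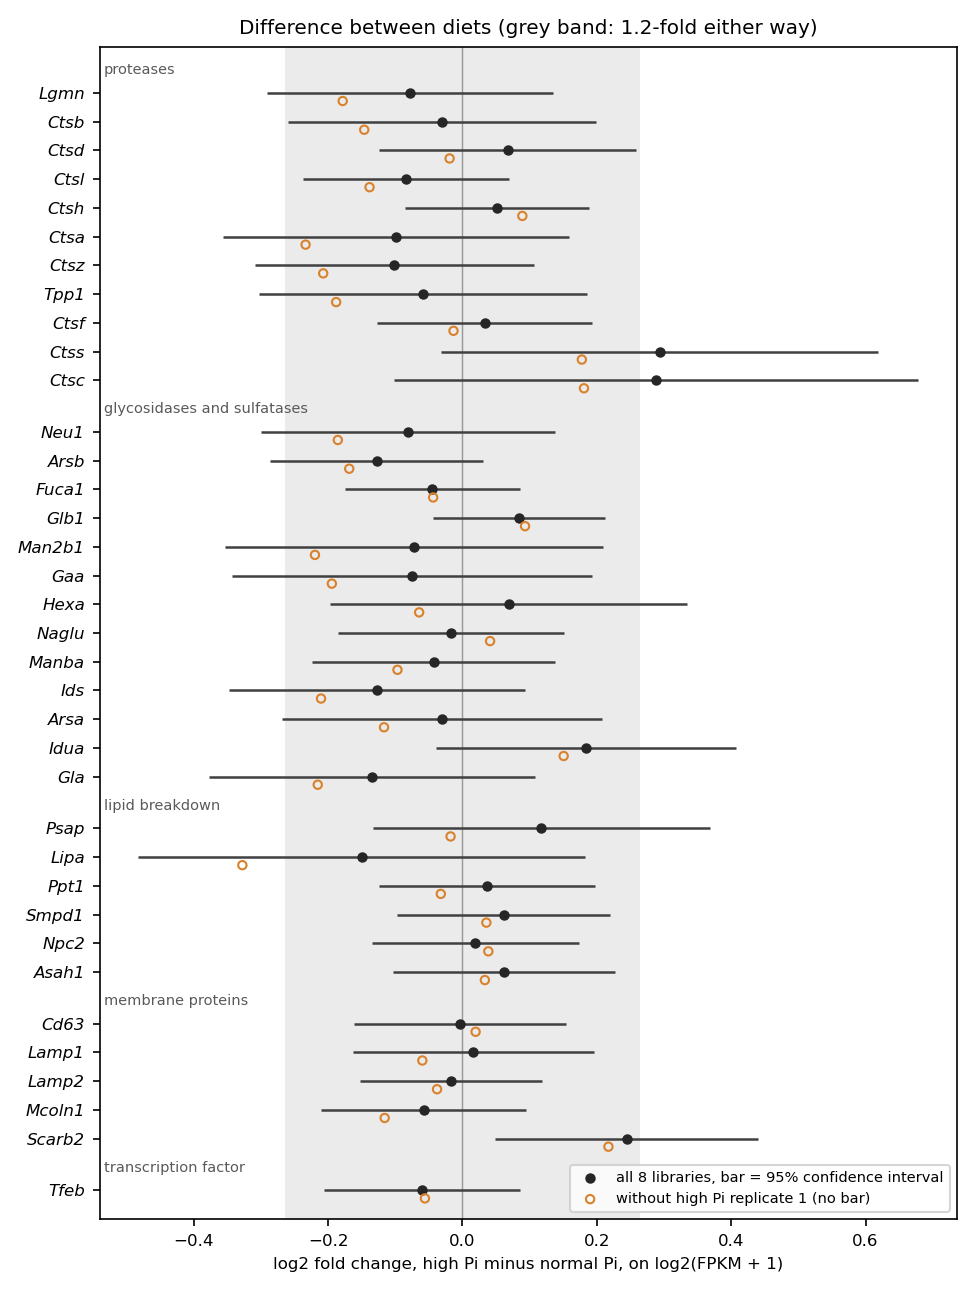
Difference between diets for each gene, as the log2 fold change on log2(FPKM + 1), high Pi minus normal Pi; filled points with bars give the estimate and its 95% confidence interval from all 8 libraries, open points the estimate without high Pi replicate 1, and the grey band marks 1.2-fold either way. Of the 36 intervals only that of Scarb2 lies wholly on 1 side of 0, and its adjusted p was 0.368 in limma.

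Of the 8 libraries, high Pi replicate 1 was the most distant. Its root-mean-square log2 distance from the other libraries of its diet, over all genes, was 0.299, against 0.138 to 0.212 for the 7 others. It was the highest of the 8 libraries for 24 members (66.7%) and for 33.3% of all genes, and the lowest for 1 member, Naglu (2.78%, against 1363 of the 12383 genes). By role it was the highest for 10 of 11 proteases, 8 of 13 glycosidases and sulfatases, 3 of 6 genes of lipid breakdown and 3 of 5 membrane protein genes, but not for Tfeb. The median member lay 0.22 above the normal Pi mean on the log2 scale in this library and between 0.05 and 0.07 below it in the other high Pi libraries. The median of all genes lay 0.07 above that mean in this library and between 0.02 and 0.05 below it in the other high Pi libraries. Deviations from the other libraries of the diet were related to the length of the leading transcript in some libraries: over 10114 genes with a known length, which share a library and its depth, Spearman's rho was 0.45 in this library, -0.54 in high Pi replicate 3, 0.31 in normal Pi replicate 2 and between -0.22 and 0.02 in the 5 others. The members with a known length, 31 of 36, had a median length of 2474 bases, against 2708 bases for those 10114 genes, and the part of length in the member values was not tested.

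Without high Pi replicate 1, 0 members had an adjusted p under 0.05 in limma, while 421 genes in all did (3.40%). The lowest adjusted p of a member was 0.0752, for Lipa. The count at an unadjusted p under 0.05 went from 1 to 12, of which 11 were lower on high Pi (30.6%, against 12.6% of all genes) and 1, Scarb2, was higher (2.78%, against 6.24%). In both directions together 18.8% of all genes were under that p. The library left out was the highest for 66.7% of members and for 33.3% of all genes. Leaving it out therefore lowers the high Pi level of members more often than that of other genes. The larger shares of lower members in this setting are thus in part fixed by that choice, and no conclusion is drawn from them. The 11 were the proteases Ctsa, Ctsb, Ctsl, Ctsz, Lgmn and Tpp1, the glycan enzymes Ids, Neu1, Man2b1 and Arsb, and the lipase Lipa. High Pi replicates 2 to 4 all lay below the 4 normal Pi libraries for 8 members (22.2%), against 12.3% of all genes, and all above for 0 members, against 4.97%. Values below 0 were then found for 25 members (69.4%) and 61.2% of all genes. The median member difference was then -0.06 on the log2 scale and that of all genes -0.04.

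**Figure D3:**
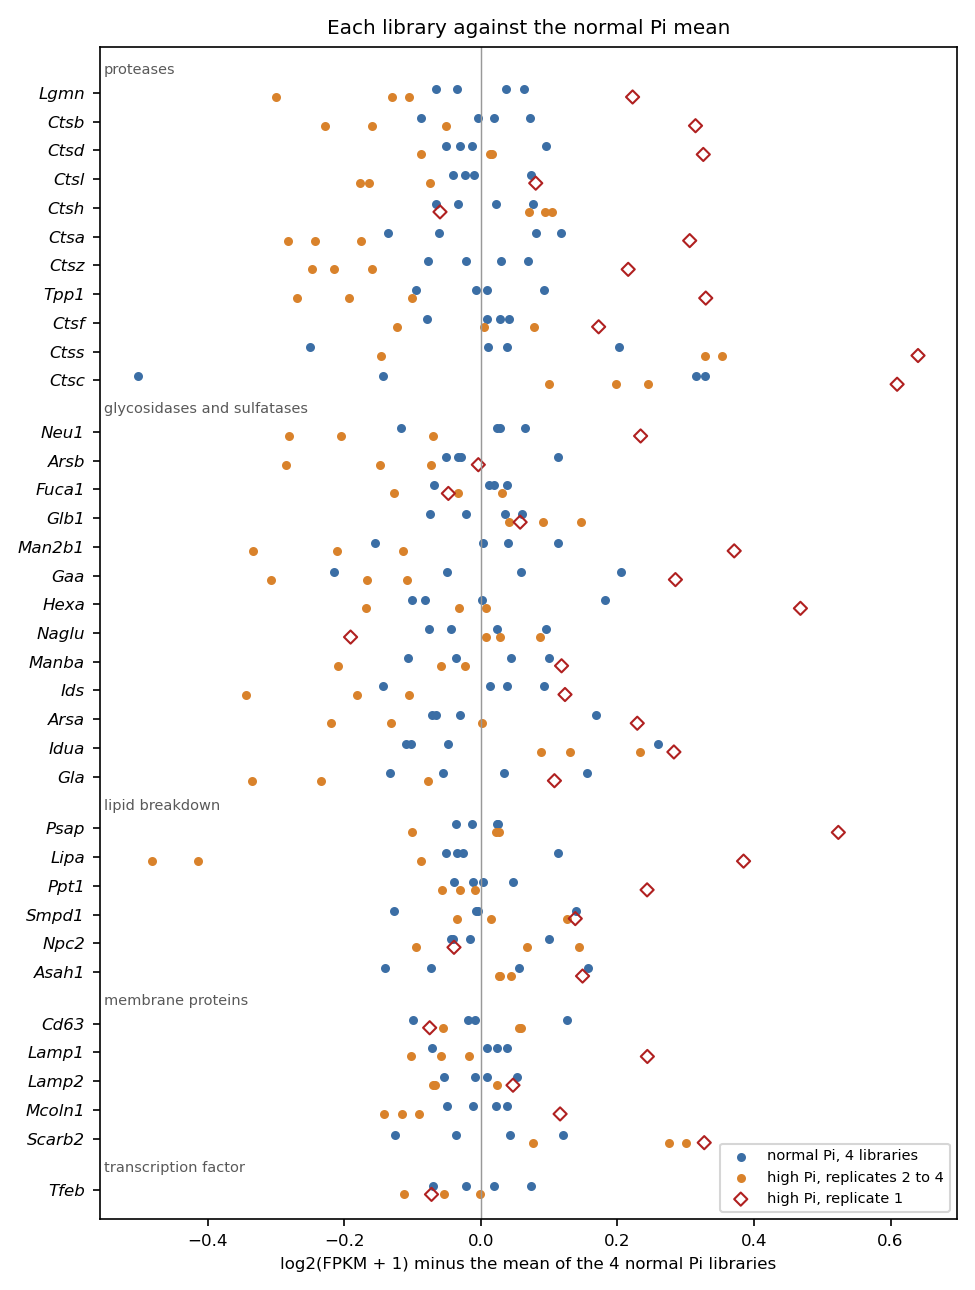
Each library's log2(FPKM + 1) minus the mean of the 4 normal Pi libraries, by gene; blue points are normal Pi, orange points high Pi replicates 2 to 4 and open diamonds high Pi replicate 1. The diamonds sit to the right for most genes, with a median of 0.22, while the orange points sit to the left of all blue points for 8 genes, among them Ctsa, Ctsz, Lgmn and Lipa.

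The proteases cut proteins delivered to the lysosome into short peptides and amino acids. Lgmn, an endopeptidase that cuts after asparagine and matures several cathepsins, had the highest mean of this group. Its levels were 488, 522, 513 and 478 FPKM on normal Pi and 584, 457, 406 and 465 FPKM on high Pi. High Pi replicate 1 was above, and the other high Pi libraries below, every normal Pi library. The log2 difference was -0.08 (SE 0.098, adjusted p = 0.888 in limma) and became -0.18 without that library (adjusted p = 0.180) but -0.0041 without high Pi replicate 3.

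Ctsa and Ctsz showed the same arrangement of libraries and are given in full after their values were seen. Lipa, described below, showed it too, as did Ctsl, Tpp1 and the membrane protein gene Mcoln1. For Ctsl, Tpp1 and Mcoln1 the log2 differences were -0.08, -0.06 and -0.06 with all libraries. Without high Pi replicate 1 they were -0.14, -0.19 and -0.12. Ctsa, a carboxypeptidase that also stabilizes the sialidase Neu1 and the galactosidase Glb1, was at 151, 175, 180 and 159 FPKM on normal Pi and at 205, 140, 146 and 136 FPKM on high Pi. Its log2 difference was -0.10 with all libraries and -0.23 without high Pi replicate 1 (adjusted p = 0.879 and 0.106 in limma). Ctsz, a cysteine carboxypeptidase, was at 128, 123, 136 and 133 FPKM on normal Pi and at 151, 112, 116 and 109 FPKM on high Pi. Its log2 difference was -0.10 and became -0.21 without that library (adjusted p = 0.822 and 0.0825 in limma). Both shrank when another library was left out, Ctsa to -0.04 without high Pi replicate 4 and -0.05 without high Pi replicate 2, and Ctsz to -0.05 without high Pi replicate 4 and -0.06 without high Pi replicate 2.

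Ctss and Ctsc were the least abundant proteases and had the highest positive differences of all members. Ctss, a cysteine protease best known from antigen-presenting cells, where it trims the invariant chain, was at 9.53, 8.40, 6.70 and 8.22 FPKM on normal Pi and at 13.3, 7.27, 10.5 and 10.7 FPKM on high Pi. High Pi replicate 2 lay among the normal Pi libraries, and the other high Pi libraries lay above all of them. The log2 difference was 0.29 (SE 0.149, 95% interval -0.03 to 0.62, adjusted p = 0.590 in limma) and was 0.18 without high Pi replicate 1 and 0.44 without high Pi replicate 2.

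Ctsc, a dipeptidyl peptidase that activates the granule proteases of leukocytes, was at 4.67, 4.62, 3.09 and 2.19 FPKM on normal Pi and at 5.89, 4.35, 4.18 and 3.84 FPKM on high Pi. The diets overlapped widely, since normal Pi replicates 1 and 2 exceeded all high Pi libraries except replicate 1. The log2 difference was 0.29 (SE 0.179, adjusted p = 0.681 in limma), and it was 0.18 without high Pi replicate 1 and 0.12 without normal Pi replicate 4. At the estimated depth, a single library held a median of about 150 fragments of Ctss and about 140 of Ctsc. This gives a counting error per library of 8.21% and 8.49%. The value for Ctsc uses the length of its leading transcript, which held 52.9% of the gene's level.

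Macrophage and leukocyte markers were measured beside these proteases. Of 18 markers listed, 14 were tested, and all 14 had a positive difference, while 54.3% of all genes were below 0. The adjusted threshold was passed by 0 of them. An unadjusted p under 0.05 in limma was found for 7 of the 14, all higher, against 4.55% of all genes higher. Positive differences were not particular to this list. They were found for 7 of 7 endothelial, 6 of 8 fibroblast and smooth muscle and 2 of 2 adipocyte markers tested. The counts were 1 of 5 for podocytes, 4 of 11 for loop, distal tubule and collecting duct, and 5 of 14 for proximal tubule. The summed level of the 18 markers was 402 to 467 FPKM on normal Pi and 624, 411, 582 and 557 FPKM in high Pi replicates 1 to 4. High Pi replicate 2 was thus the low high Pi library here, as for Ctss but not for Ctsc. For Ctsc it was at 4.35 FPKM, above replicates 3 and 4 (4.18 and 3.84 FPKM). On high Pi, the sum of fibroblast and smooth muscle markers was also lowest in replicate 2 (50.9 FPKM). That of endothelial markers was lowest in replicate 4 (250 FPKM). None of the 18 macrophage and leukocyte markers was at 0 in every library. The defining markers Csf1r and Ptprc had means of 12.6 and 1.11 FPKM on normal Pi. The part of these markers in the Ctss and Ctsc differences was not tested.

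The log2 differences of the other proteases lay between -0.08 and 0.07. Ctsb, Ctsd and Ctsl, the main endopeptidases of the lysosome, had log2 differences of -0.03, 0.07 and -0.08. Those of Ctsf, Ctsh and Tpp1 were 0.03, 0.05 and -0.06. Ctsh, an aminopeptidase, was the protease for which high Pi replicate 1 was not the highest library (153 FPKM, against 168 to 172 FPKM in the other high Pi libraries). Ctsb, Ctsd, Ctsf and Tpp1 changed sign in 1 or more of the settings with a library left out.

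The glycosidases and sulfatases remove sugars and sulfate groups from glycoproteins, glycosaminoglycans and glycolipids. Their median log2 difference was -0.04, with 10 of 13 (76.9%) below 0. Neu1, the lysosomal sialidase, led the group at 134, 152, 148 and 148 FPKM on normal Pi and 171, 138, 119 and 126 FPKM on high Pi. High Pi replicate 1 was again the highest and replicates 3 and 4 were the lowest of the 8 libraries. The log2 difference was -0.08 (SE 0.1003, adjusted p = 0.886 in limma) and was -0.19 without high Pi replicate 1, but -0.01 without high Pi replicate 3 and -0.04 without high Pi replicate 4.

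Arsb, a sulfatase of dermatan and chondroitin sulfate, was less affected by that library. Its levels were 136, 151, 137 and 134 FPKM on normal Pi and 139, 132, 114 and 126 FPKM on high Pi. High Pi replicates 2 to 4 lay below all normal Pi libraries, and replicate 1 lay within the normal Pi range. High Pi minus normal Pi was -0.13 on the log2 scale (SE 0.073, adjusted p = 0.644 in limma) and was -0.17 without high Pi replicate 1 and -0.07 without high Pi replicate 3.

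Gla, the galactosidase that cleaves globotriaosylceramide and is deficient in Fabry disease, was the least abundant member. It was at 1.67, 2.09, 1.84 and 1.53 FPKM on normal Pi and at 1.99, 1.63, 1.36 and 1.20 FPKM on high Pi. High Pi replicates 3 and 4 were the lowest libraries, and the others overlapped. The log2 difference was -0.13 (SE 0.111, adjusted p = 0.775 in limma), and it was -0.22 without high Pi replicate 1, -0.07 without high Pi replicate 4 and -0.08 without normal Pi replicate 2. A single library held a median of about 67 fragments of Gla, which gives a counting error per library of 12.3%.

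The remaining members of this group had log2 differences between -0.13 for Ids, which removes sulfate from iduronic acid in heparan and dermatan sulfate, and 0.18 for Idua, which then cleaves the iduronic acid. Both act in sequence on the same chains, and neither difference passed the threshold (adjusted p = 0.764 and 0.634 in limma). Gaa, which degrades glycogen in the lysosome, was at 38.6 to 52.0 FPKM on normal Pi and at 36.1 to 55.0 FPKM on high Pi. Hexa, the alpha subunit of hexosaminidase A, was at 33.5 to 40.9 FPKM on normal Pi and at 50.1 FPKM in high Pi replicate 1, with the other high Pi libraries at 31.9 to 36.2 FPKM. Its log2 difference turned from 0.07 to -0.06 without that library. Glb1, the acid beta-galactosidase, and Naglu, an enzyme of heparan sulfate breakdown, had log2 differences of 0.08 and -0.02. The mannosidases Man2b1 and Manba, the fucosidase Fuca1 and the sulfatide sulfatase Arsa lay between -0.07 and -0.03.

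The genes of lipid breakdown include the precursor of the saposins, small proteins that present glycolipids to their hydrolases. That gene, Psap, led the group at 696, 714, 715 and 685 FPKM on normal Pi and 1010, 716, 655 and 713 FPKM on high Pi. The normal Pi libraries spanned a narrow range, and high Pi replicate 1 alone lay far above it. A log2 difference of 0.12 was obtained (SE 0.115, adjusted p = 0.833 in limma), which turned to -0.02 without that library.

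Lipa, the acid lipase that releases cholesterol and fatty acids from internalized lipoproteins, had the lowest difference of all members. It was at 150, 166, 151 and 148 FPKM on normal Pi and at 201, 145, 110 and 115 FPKM on high Pi. High Pi replicate 1 was the highest and the other high Pi libraries the lowest of the 8. Lipa had a log2 difference of -0.15 (SE 0.152, 95% interval -0.48 to 0.18, adjusted p = 0.843 in limma). Without high Pi replicate 1 it was -0.33 (adjusted p = 0.0752), whereas it was -0.04 without high Pi replicate 3 (adjusted p = 0.989) and -0.06 without high Pi replicate 4.

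Asah1, the acid ceramidase, Smpd1, the acid sphingomyelinase, Ppt1, which removes fatty acids from proteins, and Npc2, which hands cholesterol to the membrane protein Npc1, had log2 differences of 0.06, 0.06, 0.04 and 0.02. The mean levels of these genes lay between 32.9 and 57.0 FPKM. Of the 4, Ppt1 and Npc2 changed sign in settings with a library left out.

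Among the membrane proteins, Scarb2 was the only member of the 36 with an unadjusted p under 0.05. It encodes the receptor that carries beta-glucocerebrosidase to the lysosome by a route that does not use mannose 6-phosphate, and lies at chr5:92441311-92505657. Its levels were 6.07, 4.96, 5.34 and 5.70 FPKM on normal Pi and 7.16, 6.87, 5.86 and 7.01 FPKM on high Pi. Of the high Pi libraries 3 lay above every normal Pi library, and replicate 3 lay below normal Pi replicate 1. Scarb2 had a log2 difference of 0.24 (SE 0.090, 95% interval 0.05 to 0.44, adjusted p = 0.368 in limma). Without high Pi replicate 1 it was 0.22 (adjusted p = 0.224). It stayed positive under each alternative setting, between 0.20 and 0.30, with an adjusted p of 0.224 to 0.637.

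Cd63, a tetraspanin of late endosomes and lysosomes, was the most abundant member. It was at 918, 784, 830 and 835 FPKM on normal Pi and at 798, 809, 875 and 874 FPKM on high Pi. The highest and the lowest library both belonged to the normal Pi diet, and the log2 difference was -0.0040 (SE 0.072, adjusted p = 0.996 in limma). Lamp1, a heavily glycosylated protein of the lysosomal membrane, was at 714, 763, 771 and 756 FPKM on normal Pi and at 889, 742, 721 and 699 FPKM on high Pi. Here high Pi replicate 1 was the highest library and replicate 4 the lowest. The log2 difference of Lamp1 was 0.02 (SE 0.082, adjusted p = 0.983 in limma), and it turned to -0.06 without high Pi replicate 1 and to -0.01 under quantile normalization. Lamp2, its relative that also serves autophagy, and Mcoln1, a cation channel that releases calcium from lysosomes, had log2 differences of -0.02 and -0.06.

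The level of Tfeb itself was 14.9, 15.9, 15.4 and 16.5 FPKM on normal Pi and 14.9, 15.1, 15.7 and 14.4 FPKM on high Pi. The diets overlapped, and high Pi replicate 1 did not stand out. For Tfeb the log2 difference was -0.06 (SE 0.067, 95% interval -0.21 to 0.09, adjusted p = 0.863 in limma). Tfeb acts by moving between cytoplasm and nucleus, which transcript levels do not measure.

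The differences between diets were also set beside the E-box in the 250 bases upstream. The 12 with CACGTG had a median log2 difference of -0.04, with 8 below 0, and the 21 without it had a median of -0.02, with 12 below 0. Without high Pi replicate 1 the medians were -0.12 and -0.04, with 10 of 12 and 14 of 21 below 0. These are descriptions, and no test was made between the sets. Lamp1, with 4 copies, had a difference of 0.02, and the 4 members with the longer form had differences of -0.13 (Gla), -0.10 (Ctsa), -0.06 (Mcoln1) and 0.07 (Ctsd).

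Summed over all 36 genes, the level of each library was 6127, 6292, 6200 and 6088 FPKM on normal Pi and 7147, 5903, 5809 and 5913 FPKM on high Pi. High Pi replicate 1 was the highest and the other high Pi libraries the lowest of the 8, and the means of the diets were close. The proteases followed the same order, with 2249 to 2377 FPKM on normal Pi, 2719 FPKM in high Pi replicate 1 and 2084 to 2154 FPKM in the other high Pi libraries. The 14 proximal tubule markers summed to 81986 to 94782 FPKM on normal Pi, 62027 FPKM in high Pi replicate 1 and 104590 to 128729 FPKM in high Pi replicates 2 to 4, the reverse order of the lysosomal sum. Most of this was Kap, an androgen-dependent transcript, at 71868 to 85631 FPKM on normal Pi, 52919 FPKM in high Pi replicate 1 and 96387 to 121105 FPKM in the others. Without Kap, which was set aside after its values were seen, the 13 other markers summed to 9151 to 10164 FPKM on normal Pi, 9108 FPKM in high Pi replicate 1 and 7625 to 8203 FPKM in high Pi replicates 2 to 4. The total FPKM of a library was not equal, from 624812 in high Pi replicate 1 to 719864 in high Pi replicate 3. As a share of that total, the 13 markers held 1.39% to 1.58% on normal Pi and 1.46% in high Pi replicate 1. In high Pi replicates 2 to 4 they held 1.06% to 1.21%. The 36 lysosomal genes kept their order as shares, with 1.14% in high Pi replicate 1 and 0.918% to 0.985% on normal Pi. Most of the marker sum without Kap was Slc34a1, the gene of Npt2a (means of 3909 FPKM on normal Pi and 2958 FPKM on high Pi), and Miox (3081 and 2561 FPKM). Among the other markers in the sum, Slc13a3, Slc22a6, Slc22a8 and Slc7a13 had positive differences. Of all 14 proximal tubule markers, 9 had a negative difference, against 54.3% of all genes. With all libraries 0 passed the threshold. At an unadjusted p under 0.05 in limma there were 6 (5 of them lower), against 9.35% of all genes (4.80% lower). Without high Pi replicate 1, 6 of the 14 passed the adjusted threshold, all lower, against 3.40% of all genes in either direction. None of the markers was at 0 in every library, and the part of this marker level in the lysosomal values was not tested.

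**Figure D4:**
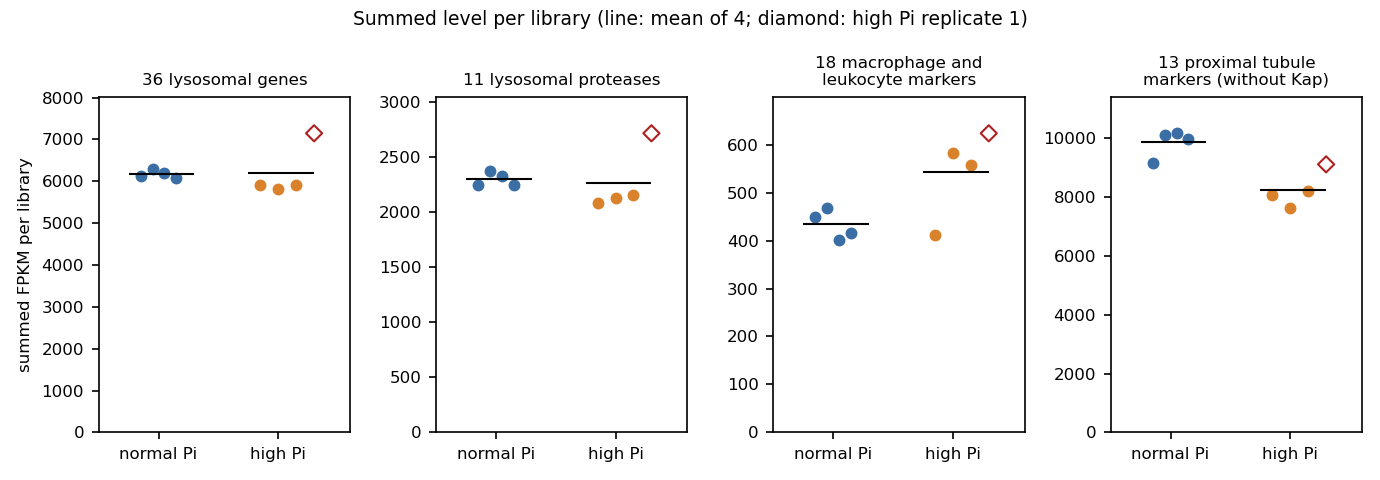
Summed FPKM per library for the 36 lysosomal genes, the 11 lysosomal proteases, 18 macrophage and leukocyte markers and 13 proximal tubule markers; each point is 1 library, the diamond is high Pi replicate 1 and the line is the mean of the 4 libraries of a diet. Both lysosomal sums put the diamond on top (7147 and 2719 FPKM) and the other high Pi libraries at the bottom; the macrophage sum is lowest on high Pi in replicate 2 (411 FPKM). The proximal tubule sum leaves out Kap, and most of it is Slc34a1 and Miox.

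The transcript-level values list 91 transcripts of the members, of which 65 passed the filter. In limma over all 22595 transcripts tested, 0 transcripts of the members and 5 in all (0.0221%) had an adjusted p under 0.05. An unadjusted p under 0.05 was found for 4 of the 65 member transcripts and for 7.10% of all transcripts. Without high Pi replicate 1 it was found for 16 of the 65, a larger share than the 10.4% of all transcripts. The limit given above for leaving out that library applies here too. A single transcript held at least 90% of the level in 28 members. Of the Lamp2 transcripts, NM_001017959.2 held 91.0% and NM_010685.4 held 7.07% of the gene's level. The leading transcript held under 60% only in Ctsc (52.9%) and Tfeb (54.8%).

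Of the 4 transcripts with an unadjusted p under 0.05, 1 is the only one with a value for Scarb2. The minor Cd63 transcript NM_001042580.1, 3.29% of the gene, was at 29.3 to 29.7 FPKM on normal Pi and at 22.5 to 27.9 FPKM on high Pi, without overlap. Its log2 difference was -0.19 (adjusted p = 0.654 in limma). The minor Manba transcript XM_006500908.2, 6.71% of the gene, had a log2 difference of -0.73 (adjusted p = 0.698 in limma). The minor Psap transcript NM_001146124.1, 2.33% of the gene, was at 16.2, 0, 0 and 0.01 FPKM on normal Pi and at 59.1, 15.6, 40.4 and 6.40 FPKM on high Pi. Its log2 difference was 3.53 (SE 1.01, adjusted p = 0.490 in limma), and normal Pi replicate 1 lay within the high Pi range. How reads are divided between transcripts this similar is uncertain.

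The other genes of the lysosomal pathway were described from 6 lists: further hydrolases and their cofactors, further membrane proteins, sorting to the lysosome, the proton pump, nutrient signaling at the lysosome, and autophagy. None of their tested genes passed the adjusted threshold with all libraries. At an unadjusted p under 0.05 in limma, 4.55% of all genes were higher and 4.80% lower. The hydrolases had 2 of 40 genes higher and 0 lower at that p, and the membrane proteins 4 of 29 higher and 1 lower. Those 4 were Cd68, Slc17a5, Laptm5 and Laptm4b, of which Laptm5 is also in the list of macrophage and leukocyte markers. Sorting had 0 of 21 either way, the proton pump 1 of 22 lower, nutrient signaling 1 of 24 lower, and autophagy 2 of 27 higher. The median log2 differences were 0.0018, 0.02, -0.06, -0.05, -0.06 and 0.02 in that order.

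The gene with the smallest p in each list is named. Acp5, the tartrate-resistant acid phosphatase, was at 56.4 to 62.1 FPKM on normal Pi and at 64.9 to 66.3 FPKM on high Pi, without overlap, with a log2 difference of 0.16 (adjusted p = 0.359 in limma). Slc36a1, a proton-coupled amino acid transporter, had a log2 difference of -0.40 (adjusted p = 0.2996 in limma). Gnptg, the gamma subunit of the phosphotransferase that makes the mannose 6-phosphate tag, had -0.13 (adjusted p = 0.556). Atp6v1c1, a subunit of the proton pump, had -0.15 (adjusted p = 0.498). Ppargc1a, a transcriptional coactivator that Tfeb regulates, had -0.35 (adjusted p = 0.422). Wipi1, which binds phosphoinositides on forming autophagosomes, had 0.26 (adjusted p = 0.263).

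Their medians without high Pi replicate 1 were -0.03, -0.02, -0.10, -0.09, -0.07 and 0.02, and 4 of the 163 tested genes of these lists (2.45%) passed the adjusted threshold in limma, against 3.40% of all genes. Wipi1 rose by 0.31 on the log2 scale (adjusted p = 0.044), while the peptidase Dpp7 fell by 0.35 (adjusted p = 0.038), the pump subunit Atp6v1b1, known from intercalated cells, fell by 0.29 (adjusted p = 0.019), and Ppargc1a fell by 0.51 (adjusted p = 0.010). The values of Wipi1 were 13.2 to 14.9 FPKM on normal Pi and 15.3 to 19.3 FPKM on high Pi, and did not overlap with all libraries included.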

How the data were processed

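Kidney cortex RNA from 8 libraries, 4 per diet, was sequenced on the DNBSEQ platform. The authors deposited FPKM values per gene and per transcript for each library; their processing notes name HISAT, Bowtie2 and GRCm38.p6, with versions and order not given in the sources used here. The test the study names needs counts, so FPKM was analysed on log2(FPKM + 1) with limma 3.58.1 in R 4.3.3 (trend fit, no covariate, Benjamini-Hochberg threshold 0.05), after a filter of at least 0.5 FPKM in at least 4 libraries; fold changes of low genes are understated on this scale. Depth, estimated from the steps of low values, was 12950000 to 14000000 fragments per library, with 78.0% to 83.7% of low values within 0.2 of a whole fragment (40% if uniform). Counting errors rest on this estimate and cover counting error only. The fit was tested on simulated data.

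Members and lists were chosen with earlier results of these data known. Named with values in every library were members past the threshold or with an unadjusted p under 0.05, the 3 highest and 3 lowest differences, the most abundant member of each role, Tfeb and Lamp1. In the other lists, the smallest p and any gene past the threshold were named. Alternatives were quantile normalization, median-of-ratios scaling, a pseudocount of 0.1, no filter, a replicate block, and leaving out each library. Of the marker lists, those of the loop, distal tubule and collecting duct had 1 gene past the threshold (Pvalb, log2 difference 0.49, adjusted p = 0.042 in limma), and those of podocytes, endothelium, fibroblasts and smooth muscle, and adipocytes had 0. At an unadjusted p under 0.05 in limma, the latter lists had 0 of 5, 3 of 7, 3 of 8 and 1 of 2 tested genes, against 9.35% of all genes.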

Additional observations from a re-analysis of the deposited data

Results flagged for a closer look

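Within each diet, a library was set apart where its gap to the nearest of the others divided by the range of the 4 libraries, exceeded Dixon's 95% critical value. Chance gives about 1 in 20 groups, and 9 of 74 groups examined were set apart, 5 of them by high Pi replicate 1. The level of Ctsa in that library was 204.82 FPKM, with the other high Pi libraries at 135.87 to 146.45 FPKM. Ctsz was at 151.11 FPKM there, against 109.34 to 116.25 FPKM. Asah1 was at 35.71 FPKM, against 32.74 to 33.15 FPKM, and Ppt1 at 66.62 FPKM, against 53.9 to 55.78 FPKM. The summed level of the 36 genes was 7146.85 FPKM in that library, against 5808.93 to 5912.71 FPKM. Normal Pi replicate 2 was the highest of its diet for the other 4. Idua was at 4.00 FPKM there, against 2.87 to 3.04 FPKM, and Arsa at 5.06 FPKM, against 4.13 to 4.28 FPKM. Arsb was at 150.77 FPKM, against 134.4 to 136.58 FPKM, and Lipa at 166.25 FPKM, against 148.31 to 150.88 FPKM. The cause was not tested in any of these.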

How the results depend on the processing

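The count of members past the adjusted threshold was 0 under every alternative run, as was that of their transcripts. The lowest adjusted p of a member in limma was 0.0752 over all alternatives and 0.231 when no library was left out. Over all genes, 37 passed the threshold, 8 without a filter on low values, 11 with the replicate number as a block, and 4 (without normal Pi replicate 3) to 421 (without high Pi replicate 1) with 1 library left out; the cause was not tested. In the other lysosomal lists, 0 to 4 genes passed with a library left out, 4 of them only without high Pi replicate 1. Same-numbered libraries of the diets did not deviate together (r = -0.21, -0.01, 0.06 and -0.12), so the numbers were not taken as pairs, and under the block 0 members passed. Members with an unadjusted p under 0.05 numbered 3 under quantile normalization, 2 under median-of-ratios scaling, 3 under the block, and 0 (without high Pi replicate 4) to 12 (without high Pi replicate 1) with a library left out. Of 468 pairs of a member and an alternative, 441 kept their sign and 27 reversed, 25 of these with a library left out, in 16 members. Without a library left out, Lamp1 turned to -0.012 under quantile normalization and Cd63 to 0.0081 under median-of-ratios scaling. With 1 library left out, log2 differences ranged from -0.15 to 0.035 for Ctsb, -0.019 to 0.12 for Ctsd, -0.013 to 0.085 for Ctsf, -0.19 to 0.012 for Tpp1, -0.19 to 0.0034 for Gaa, -0.064 to 0.15 for Hexa, -0.051 to 0.041 for Naglu, -0.22 to 0.016 for Man2b1, -0.097 to 0.012 for Manba, -0.12 to 0.033 for Arsa, -0.018 to 0.19 for Psap, -0.032 to 0.068 for Ppt1, -0.022 to 0.057 for Npc2, -0.060 to 0.056 for Lamp1, -0.038 to 0.0013 for Lamp2 and -0.037 to 0.038 for Cd63. With 4 libraries a diet, the confidence intervals limit the differences these data allow.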
